A study of Mus musculus with 5 samples.

Results

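The 10 genes described here code for the proteins that carry a mammalian cell from G1 into S phase. They are the 3 D-type cyclins Ccnd1, Ccnd2 and Ccnd3, their kinases Cdk4 and Cdk6, the E-type cyclins Ccne1 and Ccne2 with their kinase Cdk2, the pocket protein Rb1, and the transcription factor E2f1. They were chosen by name for their place in the pathway and matched by Ensembl identifier to GRCm38, and all 10 were found among the 55487 genes of the counts table. In this pathway, D-type cyclins bind CDK4 or CDK6, and the complexes phosphorylate the RB protein, which in G1 holds E2F factors inactive. Freed E2F drives genes of DNA synthesis together with cyclin E, and cyclin E with CDK2 phosphorylates RB further. The abundance of D-type cyclins follows growth signals, and p21 and related inhibitors restrain the kinases.

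RNA-Seq was performed on the mouse hippocampal line HT22 to see which genes respond when the long non-coding RNA GAS5 is knocked down (KD). Cells received 10 nM of siRNA in INTERFERin reagent and were collected at 48 h, with siRNA210 against GAS5 in 1 library, siRNA596 against GAS5 in 2 libraries, and NC siRNA in 2 libraries. The NC samples are described as untreated in 1 field of the labels, whereas their titles name NC and the study's methods give NC siRNA. All 5 libraries come from 1 unmodified cell line with no other labelled treatment. No source used here says whether replicates were separate cultures, so the P-values measure the spread between these libraries, which may be technical. Pooling both siRNAs as KD also puts any difference between them into that spread. In bulk RNA, fewer cells in a cell cycle phase and less RNA per cell cannot be told apart.

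The libraries held 30660265 to 36492134 counts. Gas5 itself stood at 90.4 and 76.0 CPM (counts scaled to a common library size) in the NC libraries, at 59.7 with siRNA210 and at 65.9 in siRNA596 replicate 1, but at 179 in the library labelled siRNA596 replicate 2, where it goes against the label. Its log2 fold change was -0.41 without that library (unadjusted P = 0.00377, edgeR quasi-likelihood adjusted P = 0.967) and 0.29 with it. That library had a normalization factor of 0.862 against 1.02 to 1.05 in the others, and 19244 genes with a count against 21866 to 22605. The mean counts in the authors' deposited table of KD against NC were matched to within 0.0977% when it was left out, and differed by up to 345% when it was included. Each comparison is therefore given for 4 libraries (2 KD, 2 NC) and then for all 5 under their labels. The KD pair of the 4 is siRNA210 and siRNA596 replicate 1, so its SD covers different siRNAs, not replicates of 1 siRNA. Of 10 neuronal markers 5 had at least 10 counts in every library (Map2, Tubb3, Eno2, Syn1 and Dlg4, the last the most abundant). The list summed to 191 to 287 CPM, and its members Nefl, Nefm and Snap25 were at 0 throughout. Progenitor markers summed to 2996 to 4832 CPM, mostly Vim and then Nes, with Sox2 and Dcx at 0. Fibroblast markers, led by Col1a1, summed to 3952 to 5498 CPM, with Dcn at 0 to 28 counts. Astrocyte markers summed to 25.4 to 50.8 CPM, mostly Slc1a3, with Aqp4 at 0. Microglial markers summed to 22.7 to 42.3 CPM, mostly Tmem119, with Ptprc at 0, and oligodendrocyte markers to 1.67 to 3.24 CPM with Olig2 at 0.

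All 10 genes were expressed in every library, from 184 counts (Rb1 in the library labelled siRNA596 replicate 2) to 24278 (Cdk4 in the same library), and all passed the expression filter of each test. Levels between genes were compared as normalized CPM per kilobase of annotated exon, averaged over the 4 libraries (± SD, n = 4). Cdk4 was the most abundant at 127 ± 1.81, followed by Ccnd1 at 46.8 ± 11.0 and E2f1 at 31.7 ± 1.72. Ccnd2 at 22.5 ± 1.80 and Cdk2 at 20.7 ± 0.398 came next, and their ranges over the 4 libraries overlapped. Ccnd3 stood at 17.6 ± 1.21, above the E-type cyclins. Ccne2 at 11.3 ± 0.561 and Ccne1 at 10.2 ± 1.79 overlapped each other. Cdk6 at 6.67 ± 0.635 and Rb1 at 3.14 ± 0.319 were the lowest of the 10. All other neighbours in this order had ranges that did not overlap. The middle of the order depends on which exons count as the gene. With the longest annotated transcript as length, Ccnd3 (39.9) and Cdk2 (39.5) moved above E2f1 (36.3) and Ccnd2 (33.4), while Cdk4, Ccnd1, Cdk6 and Rb1 kept their places.

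**Figure D1:**
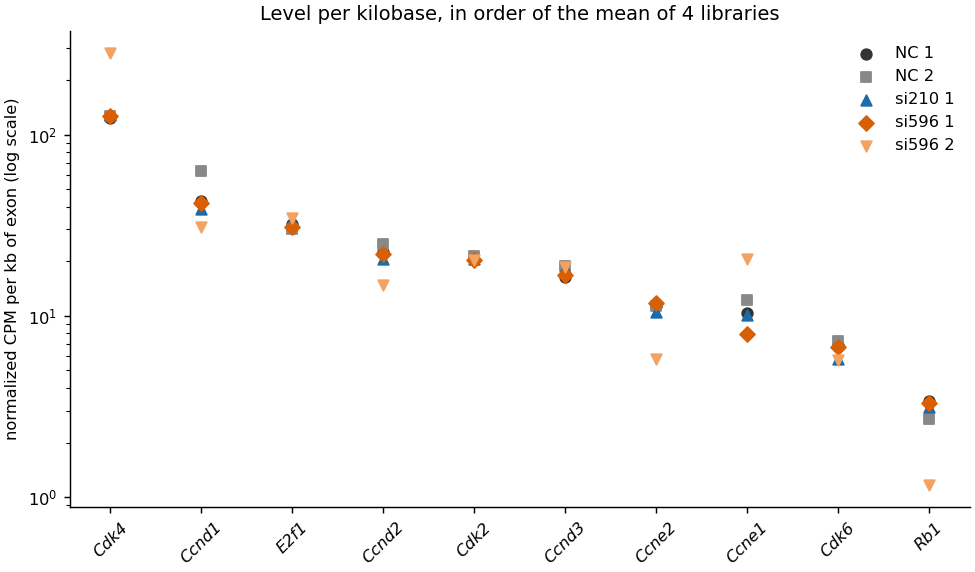
Normalized CPM per kilobase of annotated exon (log axis) of each gene in each of the 5 libraries, with genes in descending order of the mean of 4 libraries and 1 symbol per library. Cdk4 lies above all other genes in every library, and Rb1 lies at the bottom at 3.14 on average over 4 libraries and at 1.16 in the library labelled siRNA596 replicate 2.

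Among the D-type cyclins, Ccnd1 had the largest difference between KD and NC in the 4 libraries, and most of it rested on 1 NC library. Ccnd1 (ENSMUSG00000070348, GRCm38 chromosome 7, 144929931 to 144939925, minus strand) codes for cyclin D1, which couples growth factor signals to CDK4 and CDK6. Its level was 204 CPM in NC replicate 1, 297 in NC replicate 2, 183 with siRNA210, 198 in siRNA596 replicate 1 and 145 in the library labelled siRNA596 replicate 2. Every KD library lay below both NC libraries, but siRNA596 replicate 1 lay only just below NC replicate 1, and NC replicate 2 lay far above the rest. The means were 250 ± 65.8 CPM in NC and 190 ± 11.0 in KD (SD, n = 2 each). The log2 fold change was -0.40 (95% interval -0.74 to -0.057, unadjusted P = 0.0268), and edgeR's quasi-likelihood test with Benjamini-Hochberg adjustment over all genes gave an adjusted P of 0.967. Without NC replicate 2 the fold change was -0.099, without NC replicate 1 it was -0.64, and without siRNA210 it was -0.34 (unadjusted P = 0.106). NC replicate 2 exceeded NC replicate 1 by 0.54 on the log2 scale, a difference higher than in 95.5% of all genes. With all 5 libraries the log2 fold change was -0.52 (interval -1.18 to 0.15, unadjusted P = 0.105). Of its exon bases 23.4% also belong to Lto1 (LTO1 in the annotation) on the other strand, and since no strand setting is stated, reads of the pair cannot be told apart there.

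Ccnd2 (ENSMUSG00000000184, chromosome 6, 127125162 to 127152193, minus strand) codes for cyclin D2, a partner of the same kinases. It stood at 211 and 235 CPM in NC, at 195 with siRNA210, at 205 in siRNA596 replicate 1 and at 139 in the library labelled siRNA596 replicate 2. The groups did not overlap, with a margin of a few CPM between the highest KD library and the lowest NC library. The means of 4 libraries were 223 ± 16.7 in NC and 200 ± 7.42 in KD (SD, n = 2 each), and the log2 fold change was -0.16 (interval -0.35 to 0.037, unadjusted P = 0.100). It was -0.077 without NC replicate 2 and -0.23 without NC replicate 1 (unadjusted P = 0.0237, edgeR quasi-likelihood adjusted P = 0.260). With all 5 libraries it was -0.31 (interval -0.93 to 0.31), and -0.069 once offsets for exon length and GC content were added.

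Ccnd3 (ENSMUSG00000034165, chromosome 17, 47505051 to 47599691, plus strand) codes for cyclin D3. Its levels were 143 and 165 CPM in NC, 161 with siRNA210, 147 in siRNA596 replicate 1 and 164 in the library labelled siRNA596 replicate 2. All KD libraries lay between the NC libraries. Its log2 fold change was -0.0045 in 4 libraries (interval -0.22 to 0.21) and 0.028 in all 5 (interval -0.47 to 0.53), so a difference of either sign lies within both.

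The make-up of the D-type cyclin reads can be compared within a library without any scaling between libraries. Ccnd1 took 36.52% of them in NC replicate 1 (Wilson 95% interval 35.9 to 37.2), 42.6% in NC replicate 2 (42.0 to 43.2), 33.9% with siRNA210 (33.2 to 34.6), 36.0% in siRNA596 replicate 1 (35.3 to 36.7) and 32.4% in the library labelled siRNA596 replicate 2 (31.5 to 33.2). NC replicate 2 stands apart, while siRNA596 replicate 1 falls inside the interval of NC replicate 1. Wilson intervals cover counting error only, and they treat reads as independent. The share of Ccnd3 was 25.6% and 23.7% in NC, 29.9% with siRNA210, 26.7% in siRNA596 replicate 1 and 36.6% in the library labelled siRNA596 replicate 2. Ccnd3 thus took a higher share in every KD library than in either NC library, although its own level did not separate the groups. The Wilson intervals of NC replicate 1 (25.0 to 26.3) and siRNA596 replicate 1 (26.1 to 27.3) overlapped. Within a family the shares depend on each other, so this is not separate from the lower Ccnd1 and Ccnd2 levels. Summed over the 3 genes, D-type cyclins stood at 558 and 697 CPM in NC, at 538 with siRNA210, at 550.5 in siRNA596 replicate 1 and at 448 in the library labelled siRNA596 replicate 2.

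**Figure D2:**
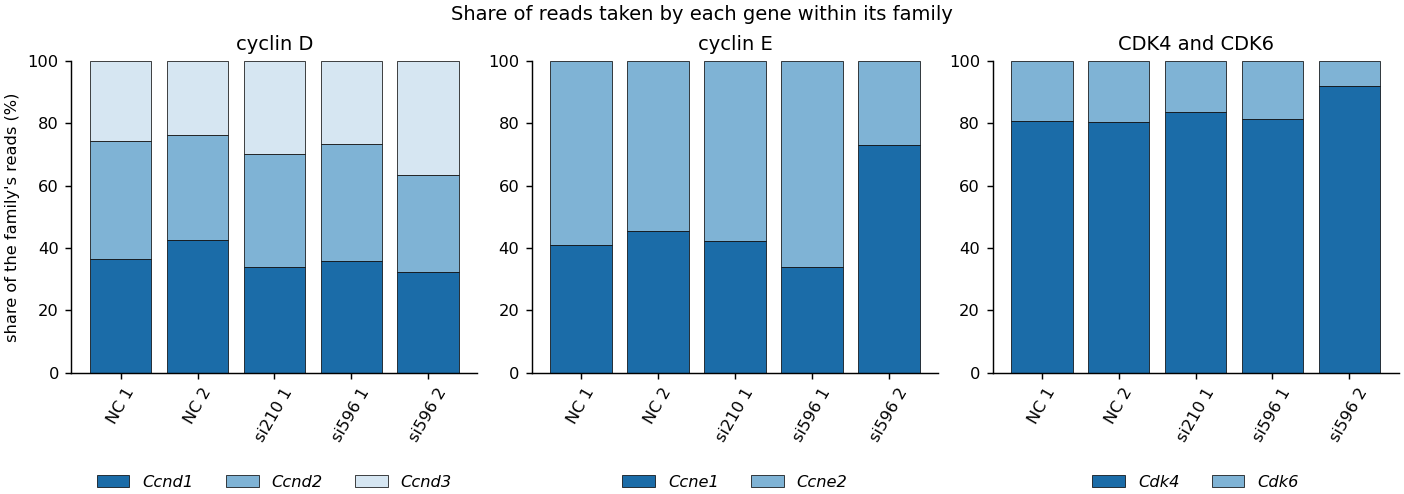
Share of reads (percent of the family's reads in that library) taken by each D-type cyclin, each E-type cyclin, and Cdk4 and Cdk6, with 1 stacked bar per library. In the first 4 libraries Ccne1 took 33.8% to 45.3% of E-type cyclin reads, and Cdk4 80.3% to 83.8% of the reads of both kinases. The library labelled siRNA596 replicate 2 lies outside these ranges, with Ccne1 at 73.1% and Cdk4 at 92.0%.

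Of the kinases that pair with D-type cyclins, Cdk4 had nearly equal levels in 4 libraries and a far higher one in the remaining library, whereas Cdk6 was lower in each KD library than in NC. Cdk4 (ENSMUSG00000006728, chromosome 10, 127063534 to 127067920, plus strand) was at 403.5 and 414.6 CPM in NC, at 417 with siRNA210, at 412 in siRNA596 replicate 1 and at 920 in the library labelled siRNA596 replicate 2. The first 4 values lie close together, and the last lies at 225% of the NC mean. The log2 fold change in 4 libraries was 0.017 (interval -0.16 to 0.19), the narrowest interval of the 10. With all 5 libraries it was 0.51 (interval -0.54 to 1.56, unadjusted P = 0.277), and the whole of that shift came with 1 library. Tspan31, on the other strand, shares 19.7% of the exon bases of Cdk4.

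Cdk6 (ENSMUSG00000040274, chromosome 5, 3341485 to 3531008, plus strand) was at 96.8 and 101.5 CPM in NC, at 80.8 with siRNA210, at 94.5 in siRNA596 replicate 1 and at 79.4 in the library labelled siRNA596 replicate 2. The groups did not overlap, although siRNA596 replicate 1 reached 95.3% of the NC mean and siRNA210 only 81.5%. KD relative to NC gave a log2 fold change of -0.18 in 4 libraries (interval -0.40 to 0.037, unadjusted P = 0.0934) and -0.22 in all 5 (interval -0.72 to 0.27). In 4 libraries the value was -0.073 without siRNA210 and -0.30 without siRNA596 replicate 1. In 5 libraries it turned to 0.22 with offsets for exon length and GC content, and to 0.37 with offsets that used the longest transcript. Cdk4 took 80.7% and 80.3% of the reads of both kinases in NC, 83.8% with siRNA210, 81.3% in siRNA596 replicate 1 and 92.0% in the library labelled siRNA596 replicate 2.

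Downstream of RB, the E-type cyclins and Cdk2 were described next. Ccne1 (ENSMUSG00000002068, chromosome 7, 38097984 to 38107534, minus strand) codes for cyclin E1, which activates CDK2 at the start of S phase and is itself an E2F target. Its levels were 27.6 and 32.7 CPM in NC, 26.8 with siRNA210, 21.1 in siRNA596 replicate 1 and 54.9 in the library labelled siRNA596 replicate 2. Both KD libraries of the 4 lay below NC, siRNA210 by less than 1 CPM, and the library labelled siRNA596 replicate 2 lay above every other. The means were 30.2 ± 3.61 CPM in NC and 24.0 ± 4.05 in KD (SD, n = 2 each), with a log2 fold change of -0.34 (interval -0.67 to -0.0025, unadjusted P = 0.0486, edgeR quasi-likelihood adjusted P = 0.967). Leaving out siRNA596 replicate 1 gave -0.17, leaving out NC replicate 2 gave -0.20, leaving out NC replicate 1 gave -0.45 and leaving out siRNA210 gave -0.52, and only the last kept an unadjusted P under 0.05 (0.0216). With all 5 libraries the sign was the opposite, at 0.18 (interval -0.91 to 1.27).

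Ccne2 (ENSMUSG00000028212, chromosome 4, 11191351 to 11204779, plus strand) codes for cyclin E2, which also pairs with CDK2. It stood at 39.8 and 39.5 CPM in NC, at 36.7 with siRNA210, at 41.4 in siRNA596 replicate 1 and at 20.2 in the library labelled siRNA596 replicate 2. The KD libraries of the 4 lay on both sides of NC. A log2 fold change of -0.024 was found in 4 libraries (interval -0.26 to 0.21) and -0.27 in all 5 (interval -1.11 to 0.56). Ints8, on the other strand, shares 17.4% of its exon bases. Because Ccne1 was high and Ccne2 low in the same library, Ccne1 took 73.1% of E-type cyclin reads there (Wilson 95% interval 71.1 to 75.0), against 41.0% and 45.3% in NC, 42.3% with siRNA210 and 33.8% in siRNA596 replicate 1.

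Cdk2 (ENSMUSG00000025358, chromosome 10, 128697939 to 128705031, minus strand) was the steadiest gene of the 10, at 127 and 133 CPM in NC, 128 with siRNA210, 127 in siRNA596 replicate 1 and 127 in the library labelled siRNA596 replicate 2. Its log2 fold change was -0.025 in 4 libraries (interval -0.20 to 0.15) and -0.028 in all 5 (interval -0.50 to 0.44).

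Rb1 (ENSMUSG00000022105, chromosome 14, 73183673 to 73325822, minus strand) codes for the retinoblastoma protein, the brake on E2F in G1. Its levels were 20.4 and 16.1 CPM in NC, 19.0 with siRNA210, 19.98 in siRNA596 replicate 1 and 6.97 in the library labelled siRNA596 replicate 2. The KD libraries of the 4 lay between the NC libraries, and the remaining library held 38.2% of the NC mean. KD relative to NC gave 0.093 on the log2 scale in 4 libraries (interval -0.24 to 0.42) and -0.25 in all 5 (interval -1.42 to 0.92). Lpar6 and Rcbtb2, on the other strand, share 14.9% of its exon bases.

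E2f1 (ENSMUSG00000027490, chromosome 2, 154559407 to 154569892, minus strand) codes for the activating E2F factor that RB binds. It stood at 101.4 and 94.8 CPM in NC, at 107 with siRNA210, at 97.0 in siRNA596 replicate 1 and at 110 in the library labelled siRNA596 replicate 2. The groups overlapped through siRNA596 replicate 1. The log2 fold change was 0.056 in 4 libraries (interval -0.14 to 0.25) and 0.095 in all 5 (interval -0.39 to 0.58).

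**Figure D3:**
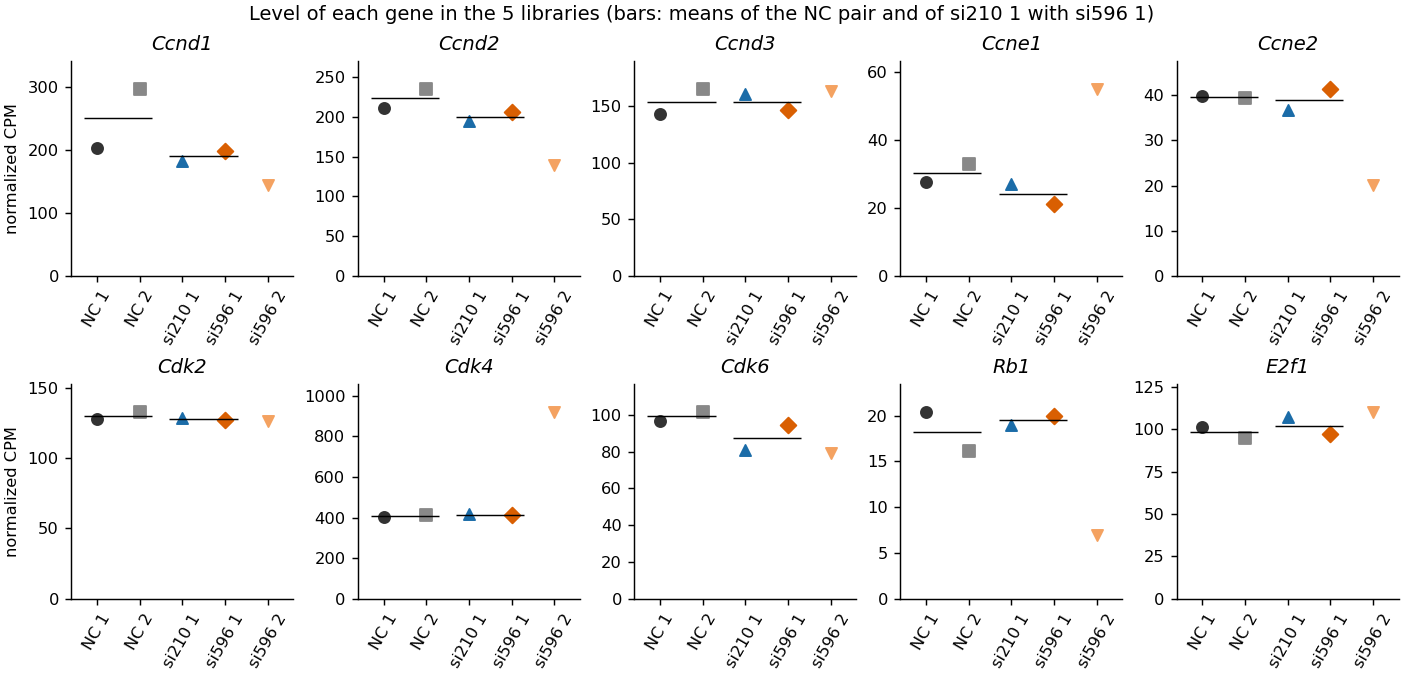
Normalized CPM of each of the 10 genes (1 panel each, vertical axis from 0) in NC replicates 1 and 2, siRNA210, siRNA596 replicate 1 and the library labelled siRNA596 replicate 2, with lines at the mean of the NC pair and of the KD pair used in the 4-library comparison. Ccnd1 has a wide gap between its NC points (204 and 297), and Cdk4, Ccne1, Ccne2 and Rb1 have their last point far from the other 4.

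Counted together, none of the 10 genes passed an adjusted P of 0.05 in edgeR's quasi-likelihood test, in 4 libraries or in 5. Among all genes 0% of the 15867 tested in 4 libraries did, and 0% of the 16142 tested in 5. At an unadjusted P of 0.05, Ccnd1 and Ccne1 were called in 4 libraries, both lower in KD, 2 of 10 beside 3.3% of all genes. DESeq2 called the same 2 genes at this level, beside 2.32% of all genes. With each library left out in turn, the edgeR log2 fold change ran from -0.64 to -0.099 for Ccnd1 and from -0.52 to -0.17 for Ccne1. At the same unadjusted P in 5 libraries, edgeR called none of the 10, beside 0.372% of all genes. Under the cutoffs used in the study (P below 0.05 before adjustment, with a log2 fold change beyond 1 in either direction), edgeR called none of the 10. Among all genes it called 0.876% in 4 libraries and 0.353% in 5. The study applied these cutoffs to DESeq2. Run here, DESeq2 called none of the 10 either, beside 67 of 15867 genes in 4 libraries and 81 of 16142 in 5. The groups did not overlap for 4 of the 10 genes in 4 libraries (Ccnd1, Ccnd2, Ccne1 and Cdk6, each lower in KD), beside 32.8% of all genes. In 5 libraries this held for Ccnd1, Ccnd2 and Cdk6, 3 of 10 beside 17.8% of all genes, all 3 lower in KD. The median log2 fold change of the 10 genes was -0.025 in 4 libraries, where that of all genes was -0.0023, and 3 of the 10 were above 0 and 7 below. In 5 libraries the median was -0.13 beside 0.011 for all genes, and this depended on the scaling. It was -0.22 beside -0.087 with library size only, 0.0048 beside 0.066 with offsets for exon length and GC content, and -0.019 beside 0.066 with offsets for the longest transcript.

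**Figure D4:**
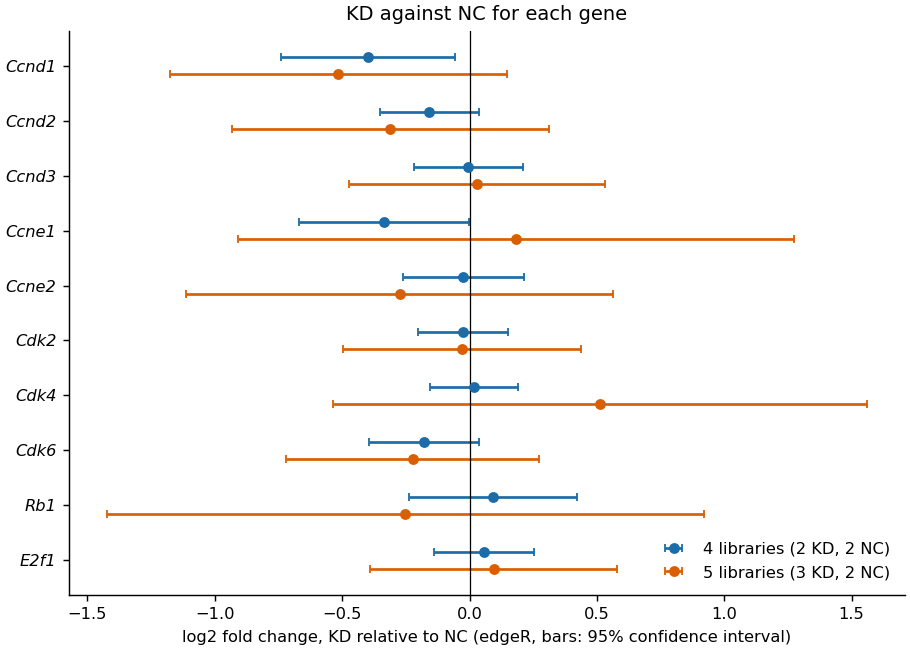
Log2 fold change of KD relative to NC for each gene, with 95% confidence intervals from edgeR's quasi-likelihood fit, for 4 libraries (blue) and all 5 (orange). Only Ccnd1 and Ccne1 have 4-library intervals that exclude 0 (-0.74 to -0.057 and -0.67 to -0.0025), and every 5-library interval includes 0.

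The size of these differences can be set against the NC pair. For 6 of the 10 genes the 2 NC libraries differed by more than KD and NC did in the 4 libraries. A difference between single libraries varies more than a difference between group means. The share over all genes was not counted, so this is not read as particular to the 10. The absolute log2 difference between the NC libraries had a median of 0.12 over the 10 genes and 0.18 over all genes. Rb1 had the second-largest of the 10 after Ccnd1, at -0.33 for NC replicate 2 relative to replicate 1. Taken alone, siRNA596 against NC gave no adjusted call among the 10 (0% of 15827 genes) and none at an unadjusted P of 0.05, beside 0.259% of all genes. Without siRNA596 replicate 1, which leaves the library that stands apart as the 1 KD library, 7 of the 10 had an unadjusted P under 0.05, beside 56.1% of all genes, and all of the 7 but Cdk6 an adjusted P under 0.05. Without replicate 2 it was 1 of the 10, Ccne1, beside 1.01%. With both replicates Cdk4 had the highest log2 fold change of the 10, at 0.71 (interval -0.47 to 1.89), and Ccnd1 the lowest, at -0.54 (interval -1.46 to 0.37). The siRNA210 library has no replicate and was not tested alone. It lay farthest from the NC mean for Ccnd1, at 72.9%, and for Cdk6, at 81.5%, while siRNA596 replicate 1 lay farthest for Ccne1, at 69.9%, and for Ccnd1, at 79.1%.

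The library labelled siRNA596 replicate 2 differed from the other 4 at 6 of the 10 genes by more than 0.5 on the log2 scale, and 60.4% of all genes differed from the other 4 by as much. Cdk4 was higher by 1.16 (2.23-fold) and Ccne1 by 1.02 (2.03-fold). Rb1 was lower, at -1.37, as were Ccne2 at -0.94, Ccnd2 at -0.60 and Ccnd1 at -0.57. E2f1 (0.14), Ccnd3 (0.091), Cdk2 (-0.026) and Cdk6 (-0.23) lay closer to the others. Transcript length moved with this ratio. Cdk4 and Ccne1 have the shortest transcripts of the 10 (longest annotated transcript 2053 and 2000 bases), Rb1 has 4656 and Ccnd2 6330, but Cdk6 has the longest, 11525 bases, and differed little. Spearman's rho between length and ratio was -0.65 over the 10 genes and -0.70 over the 10568 genes of at least 5 CPM on average, as a description, since the genes share 1 library and its base composition. With the union of annotated exons as length it was -0.47 and -0.64. With the GC content of that transcript it was 0.83 over the 10 genes and 0.31 over the 10568 genes. After a spline on length and GC content was removed, Cdk4 was still higher by 0.86 and Ccne1 by 0.76, and Rb1 was at -0.63. Cdk6 turned from -0.23 to 1.13, the largest value of the 10 after this step, whereas Ccne2 was at -0.17 and Ccnd2 at 0.29. Beyond 0.5 were then 4 of the 10 genes and 56.0% of all genes. The part of length, GC content or any other property of that library in these values was not tested beyond this.

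**Figure D5:**
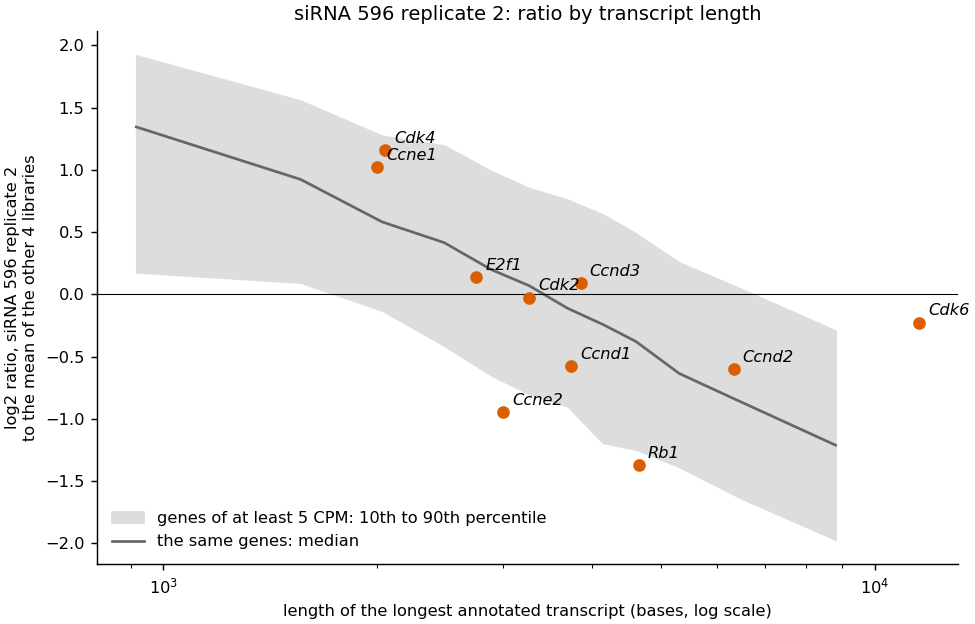
Log2 ratio of the library labelled siRNA596 replicate 2 to the mean of the other 4 (vertical axis) against the length of the longest annotated transcript in bases (log axis), for the 10 genes (points) and for 10568 genes of at least 5 CPM in 12 classes of length (line, median, and band, 10th to 90th percentile). The median falls from 1.35 in the shortest class to -1.21 in the longest, Cdk4 and Ccne1 lie above the line, and Rb1 and Ccne2 lie below the band.

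The genes around this core were read from lists of the pathway. Of 11 other pocket protein and E2F family genes, 4 were above 0 and 7 below in 4 libraries. None had an unadjusted P under 0.05 in edgeR, beside 3.3% of all genes. The highest was Rbl2, coding for the RB relative p130, at 0.14 (47.7 and 49.5 CPM in KD, 46.9 and 41.0 in NC), and the lowest was E2f5 at -0.18. In the library labelled siRNA596 replicate 2, Rbl2 was at 10.9 CPM, so that 5 libraries gave -0.28. Over this list the median was -0.030, beside -0.0023 for all genes, and -0.19 in 5 libraries.

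The next list held 17 genes that act on G1 cyclin-CDK complexes, among them kinases, phosphatases and parts of ubiquitin ligases. In 4 libraries 8 were above 0 and 9 below, with a median of -0.0060. Of the 17, 1 had an unadjusted P under 0.05 in edgeR, beside 3.3% of all genes. Ccnh, which codes for the cyclin of the kinase that activates CDKs, was at 22.8 CPM with siRNA210 and 25.0 in siRNA596 replicate 1, below the 28.1 and 32.1 of NC, but at 40.1 in the library labelled siRNA596 replicate 2. Its log2 fold change was -0.33 in 4 libraries (unadjusted P = 0.0234, edgeR quasi-likelihood adjusted P = 0.967) and -0.038 in 5, and the unadjusted P was 0.184 without siRNA210 and 0.0977 without NC replicate 2. Its partners Cdk7 and Mnat1 were at -0.039 and 0.061 in 4 libraries. The highest of the list was Usp2, which codes for a protease that removes ubiquitin from cyclin D1, at 0.13 with 149 to 209 counts in the 4 libraries.

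Of 7 CDK inhibitor genes, 4 were above 0 and 3 below in 4 libraries. Only Cdkn1a had an unadjusted P under 0.05 in edgeR, 1 of 7 beside 3.3% of all genes. Cdkn1a, which codes for p21, was at 66.1 and 31.6 CPM in NC, at 89.6 with siRNA210, at 70.7 in siRNA596 replicate 1 and at 12.1 in the library labelled siRNA596 replicate 2. The KD libraries of the 4 lay above NC, yet the NC libraries differed from each other by more than siRNA596 replicate 1 did from the nearer of them. The log2 fold change was 0.72 (SE 0.271, unadjusted P = 0.0267, edgeR quasi-likelihood adjusted P = 0.967), 0.28 without NC replicate 2, 1.34 without NC replicate 1, 0.53 without siRNA210 (unadjusted P = 0.0954), and 0.24 with all 5 libraries. NC replicate 2 was the library with the highest Ccnd1 of the 5 and, of the 4, the lowest Cdkn1a. DESeq2 gave an unadjusted P of 0.181 for Cdkn1a in the same 4 libraries. Cdkn2a, whose locus codes for the CDK4 and CDK6 inhibitor p16 and for p19ARF, was at 348 and 341 CPM in NC, 387 with siRNA210, 335 in siRNA596 replicate 1 and 921 in the library labelled siRNA596 replicate 2. The highest value of the list was that of Cdkn1c, 0.79, on 7 to 17 counts per library (unadjusted P = 0.271), and the lowest that of Cdkn2b, -0.087.

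Of 35 E2F target genes at G1/S, such as those of the MCM helicase and of nucleotide synthesis, 26 were above 0 and 9 below in 4 libraries. The genes share the same 4 libraries, and the split of signs was not tested. None had an unadjusted P under 0.05 in edgeR, beside 3.3% of all genes. The median log2 fold change was 0.025, beside -0.0023 for all genes. The values ran from -0.16 for Gins1, a subunit of the replicative helicase, to 0.18 for Fen1, the flap endonuclease. In 5 libraries 22 were above 0 and 13 below, the median was 0.066, and Gins1 and Fen1 had the opposite signs, at 0.35 and -0.13.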

How the data were processed

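HT22 cells were collected 48 h after transfection with 10 nM of siRNA. The counts deposited by the authors are whole reads per gene without normalization. Reads were trimmed with Trimmomatic, and the submitters' processing notes name HISAT2 2.1.0, SAMtools 1.7, featureCounts 2.0.1, DESeq2 1.26.0 and GRCm38. The strand setting and how multiply mapped reads and read pairs were counted are not given in the sources used here. In genes with 1 to 20 counts, 62.0% to 68.0% of the counts were even, depending on the library, so counts may not be independent fragments. The normalized signal (mean of counts over size factors) in the authors' deposited DESeq2 table served only to find its libraries, and its fold changes and P-values were not used.

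Identifiers were matched to GENCODE M21 of GRCm38, which named 99.4% of the 55487. CPM used TMM factors over 5 libraries. Tests used edgeR 4.0.16 (quasi-likelihood, TMM, filterByExpr) in R 4.3.3, with adjusted P-values from the Benjamini-Hochberg method over all genes tested, and DESeq2 1.42.0 as an alternative. Single-library ratios used a pseudocount of 0.5 CPM, length and GC content were fitted by splines of 5 degrees of freedom, and Wilson intervals are at 95%. Total counts per library were 30660265 to 36492134, with 1 to 2 libraries per siRNA. Named genes were the 10 members, Gas5, and from each pathway list those with an unadjusted P under 0.05 in 4 libraries and its highest and lowest fold change. Cdk7, Mnat1 and Cdkn2a were named after their values were seen. The members and lists were chosen with earlier results of these data known. Simulated data were used to test the edgeR fits. They had 1 dispersion for all genes, taken from the 4 libraries, and no outlying library. They therefore do not bear on how the 5-library fits handle the library labelled siRNA596 replicate 2. Alternatives were DESeq2, its size factors, library size only, other filters, offsets for length and GC content, the replicate number as a block, and each library left out in turn. The offsets for the longest transcript were added after seeing the data.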

Additional observations from a re-analysis of the deposited data

How the results depend on the processing

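At an unadjusted P of 0.05 the test called 523 genes in 4 libraries, 60 in 5 and 41 for siRNA596 alone. Without a filter on low counts these became 924 in 4 libraries and 175 in 5, with more genes tested. Leaving out each library in turn gave 170 to 2776 in 4 libraries (lowest without siRNA210, highest without NC replicate 1), 33 to 523 in 5 (lowest without NC replicate 2, highest without the library labelled siRNA596 replicate 2), and 27 to 9412 for siRNA596 alone (lowest without NC replicate 2, highest without siRNA596 replicate 1, which leaves 1 KD library that is assumed to vary as the NC pair do). For siRNA596, DESeq2 called 390 genes and the replicate block 428, none at an adjusted P of 0.05. The deviations of same-numbered libraries correlated at 0.097 over 15827 genes. That value includes the library labelled siRNA596 replicate 2, which stands apart, so it cannot show whether the numbers are pairs. They were not taken as pairs in the main fit, and the block called none of the 10 genes. The cause of these shifts was not tested. Genes with an adjusted P under 0.05 numbered 1 with DESeq2 in 4 libraries, 1 in the fit of siRNA596 replicate 1 with both NC libraries, and 8292 for siRNA596 without its replicate 1.

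The negative values of Ccnd1, Ccnd2, Ccne1 and Cdk6 in 4 libraries kept their sign under all alternatives tried there. For these genes both KD libraries lay below both NC libraries, so leaving out any library could hardly turn the sign. The other alternatives used the same counts, and the kept signs are not read as support. Signs turned with library size as the only scaling for Cdk4 in 4 libraries (-0.0020), Ccnd3 (-0.078) and E2f1 (-0.011) in 5, and Ccnd3 (-0.14) and E2f1 (-0.069) for siRNA596. With offsets for exon length and GC content in 5 libraries they turned for Cdk2 (0.12), Cdk6 (0.22), E2f1 (-0.070), Ccnh (0.24) and Cdkn2b (-0.039). With offsets for the longest transcript instead, they turned for Ccnd3 (-0.020), Cdk2 (0.033), Cdk6 (0.37), E2f1 (-0.060), Ccnh (0.18) and Cdkn2b (-0.072).

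With each library left out in turn, log2 fold changes that crossed 0 in 4 libraries ran from -0.0031 to 0.039 for Cdk4, -0.10 to 0.11 for Ccnd3, -0.054 to 0.0059 for Cdk2, -0.064 to 0.27 for Rb1, -0.12 to 0.059 for Ccne2, -0.019 to 0.12 for E2f1, -0.12 to 0.42 for Usp2 and -0.18 to 0.018 for Cdkn2b. In 5 libraries they ran from -0.075 to 0.13 for Ccnd3, -0.34 to 0.43 for Ccne1, -0.49 to 0.093 for Rb1, -0.41 to 0.56 for Gas5, -0.54 to 0.13 for Usp2, -0.33 to 0.12 for Ccnh, -0.24 to 0.87 for Cdkn1a, -0.58 to 0.14 for Rbl2, -0.087 to 0.30 for Cdkn2b, -0.16 to 0.57 for Gins1 and -0.32 to 0.18 for Fen1. For siRNA596 they ran from -0.093 to 0.12 for Ccnd3, -0.52 to 0.86 for Ccne1, -0.98 to 0.059 for Ccne2, -1.39 to 0.13 for Rb1, -0.019 to 0.16 for E2f1 and -0.34 to 1.10 for Gas5.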
